A study of Mus musculus with 12 samples.

Results

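The 28 CpG cytosines of 1 amplified window near Twist2 were examined in mouse embryonic stem cells of the parental line v6.5 and in a derived line stably depleted of Tet2 (Tet2kd). They were taken as every cytosine of the mm9 window chr1:93674763-93675164 that is followed by G on its own strand, which gave 14 CpGs with 1 cytosine on the Watson (plus) strand and 1 on the Crick (minus) strand each. These are 28 of 427 genomic CpG cytosines and part of the 160 cytosines listed in the window. None of the 28 reached 10 read-outs in all 12 samples of the study, so genotypes were compared, in each assay, at cytosines with at least 10 read-outs in at least 2 replicates of both genotypes.

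Targeted BS-seq and oxBS-seq were carried out on 3 replicates of v6.5 and 3 of Tet2kd cells, with the DNA of each replicate split between both assays. v6.5 are wild-type embryonic stem cells. The titles of the v6.5 samples also carry the word knock-down, but their source names and genotype labels give parental and wild-type cells, and they were grouped by these. Tet2kd cells are v6.5 cells electroporated with a plasmid that expresses a short hairpin RNA against Tet2, selected with puromycin and picked as clones, and both were grown in medium with LIF. The knockdown itself was not measured in these data, the parental cells carried no control hairpin in the labels, and the number of clones behind the 3 Tet2kd replicates was not given in the sources used here.

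TET enzymes oxidize 5-methylcytosine (5mC) to 5-hydroxymethylcytosine (5hmC) and further, which is a route to the loss of methylation. In embryonic stem cells Tet1 and Tet2 are the main family members, and 5hmC is often found at distal regulatory elements and in gene bodies. In BS-seq both 5mC and 5hmC stay as C whereas unmodified cytosine is read as T, and in oxBS-seq 5hmC is first oxidized with KRuO4, so that it too is read as T. The C share, the percent of C among the C and T read-outs of a cytosine, therefore stands for 5mC plus 5hmC in BS-seq and mainly for 5mC in oxBS-seq. Twist2 itself encodes a basic helix-loop-helix transcription factor of mesenchymal cells such as those of the dermis. Its expression was not measured.

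The window is intergenic. It spans 402 bases, none of which lies in a gene of the mm9 annotation. Twist2 (ENSMUSG00000007805.3, chr1:93698038-93744605, plus strand) starts 22874 bp beyond its end, and the nearest gene on the other side, Asb1 (ENSMUSG00000026311.9, chr1:93437142-93456167), ends 218596 bp before its start. The GC content was 42.5% and the ratio of observed to expected CpGs was 0.778. The 14 CpGs are numbered here along the plus strand and fall into a run of 12 and, after a gap of 100 bases, a pair. Both stretches are printed as the plus strand of mm9, because all values in the text refer to their CpGs, which stand in capitals.

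CpGs 1 to 12, chr1:93674835-93675017: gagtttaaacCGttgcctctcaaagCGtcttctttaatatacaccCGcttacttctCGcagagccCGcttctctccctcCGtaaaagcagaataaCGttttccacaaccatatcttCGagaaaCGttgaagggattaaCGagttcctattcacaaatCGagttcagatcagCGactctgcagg
CpGs 13 to 14, chr1:93675096-93675143: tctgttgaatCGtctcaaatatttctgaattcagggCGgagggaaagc

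The strands were covered very unequally. Over all samples a Watson cytosine had a median of 68 read-outs (10 to 359) and a Crick cytosine a median of 605 (26 to 4077). Crick coverage was highest at CpGs 1 to 7 and 13 to 14, with medians from 1259 to 1592 read-outs per CpG, and lowest at CpGs 8 to 12, with medians from 80 to 103. On the Watson strand CpGs 7 to 11 were the thinnest, with medians from 22 to 35. At 68 read-outs a C share of 50% has a Wilson 95% interval from 38.4% to 61.6%, at 605 from 45.9% to 53.9%, and at 10 from 23.7% to 76.3%. Amplified reads without molecular identifiers are not independent molecules, so such intervals cover counting error only.

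A library of each genotype listed only 1 strand at this window. The counts list no cytosine under 10 read-outs, so a library is said to hold a cytosine or strand where it is listed. The oxBS-seq library of Tet2kd replicate 2 held the 14 Watson cytosines and no Crick cytosine, and that of v6.5 replicate 2 held the 14 Crick cytosines and no Watson cytosine. In BS-seq 27 of the 28 cytosines could be matched between genotypes (13 Watson and 14 Crick), 23 of them listed in all 6 samples. In oxBS-seq all 28 were matched, but 0 were listed in all 6 samples. The unmatched one was the Watson cytosine of CpG 10 in BS-seq, at 50.0%, 41.7% and 50.0% in v6.5 replicates 1 to 3 and at 69.2% in the only Tet2kd replicate listed, replicate 2. The Watson cytosines of CpGs 7, 8, 9 and 11 just met the rule, with 2 Tet2kd replicates each.

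The BS-seq C share was higher in Tet2kd than in v6.5 cells at all 27 matched cytosines. The same held for 334 of the 393 other CpG cytosines of the study, so most shared this direction. Averaged over the 23 cytosines of the window listed in every sample, the C share was 71.6%, 70.9% and 69.5% in Tet2kd replicates 1 to 3. It was 52.1%, 51.7% and 51.2% in v6.5 replicates 1 to 3. The groups were far apart relative to their spread, and all 3 Tet2kd samples lay above all 3 v6.5 samples. The means were 70.7% ± 1.04 (SD, n = 3) in Tet2kd and 51.7% ± 0.428 (SD, n = 3) in v6.5 cells. The difference was 19.0 percentage points (SE 0.648), with a two-sided exact permutation p = 0.1 over 20 assignments, which is the smallest that 3 against 3 samples can give.

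The same direction was found on each strand. On the Watson strand, over 9 cytosines, Tet2kd samples had 76.2%, 77.0% and 75.2% and v6.5 samples 62.6%, 61.5% and 60.7%. On the Crick strand, over 14 cytosines, Tet2kd samples had 68.6%, 67.0% and 65.9% and v6.5 samples 45.3%, 45.4% and 45.1%. The difference was 14.5 points (SE 0.772) on the Watson and 21.9 points (SE 0.777) on the Crick strand, each with exact permutation p = 0.1 (two-sided, the smallest possible). The 2 sets of cytosines were not the same CpGs, because thin Watson cytosines dropped out.

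The oxBS-seq C share was also higher in Tet2kd cells, with a wider spread. No cytosine was shared by all 6 samples, so the sample values came from an additive fit with a term for each cytosine and each sample over the 28 matched cytosines, in which both replicates 2 rest on 14 cytosines of 1 strand. The fitted C share was 59.6%, 55.7% and 64.3% in Tet2kd replicates 1 to 3 and 43.4%, 46.1% and 50.3% in v6.5 replicates 1 to 3. The lowest Tet2kd sample again lay above the highest v6.5 sample. The means were 59.9% ± 4.32 and 46.6% ± 3.48 (SD, n = 3 each), and the difference was 13.3 points (SE 3.20; two-sided exact permutation p = 0.1, the smallest possible).

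Without a fit, each strand could be compared in the samples that held it. On the Watson strand the oxBS-seq means over 14 cytosines were 66.0%, 61.2% and 68.6% in Tet2kd replicates 1 to 3 and 46.9% and 58.0% in v6.5 replicates 1 and 3. On the Crick strand they were 53.3% and 60.1% in Tet2kd replicates 1 and 3 and 39.8%, 40.7% and 42.6% in v6.5 replicates 1 to 3. The groups did not overlap on either strand. The differences were 12.8 points (SE 5.96) and 15.7 points (SE 3.51), both with a two-sided exact permutation p = 0.2, the smallest that 3 against 2 samples allow.

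**Figure D1:**
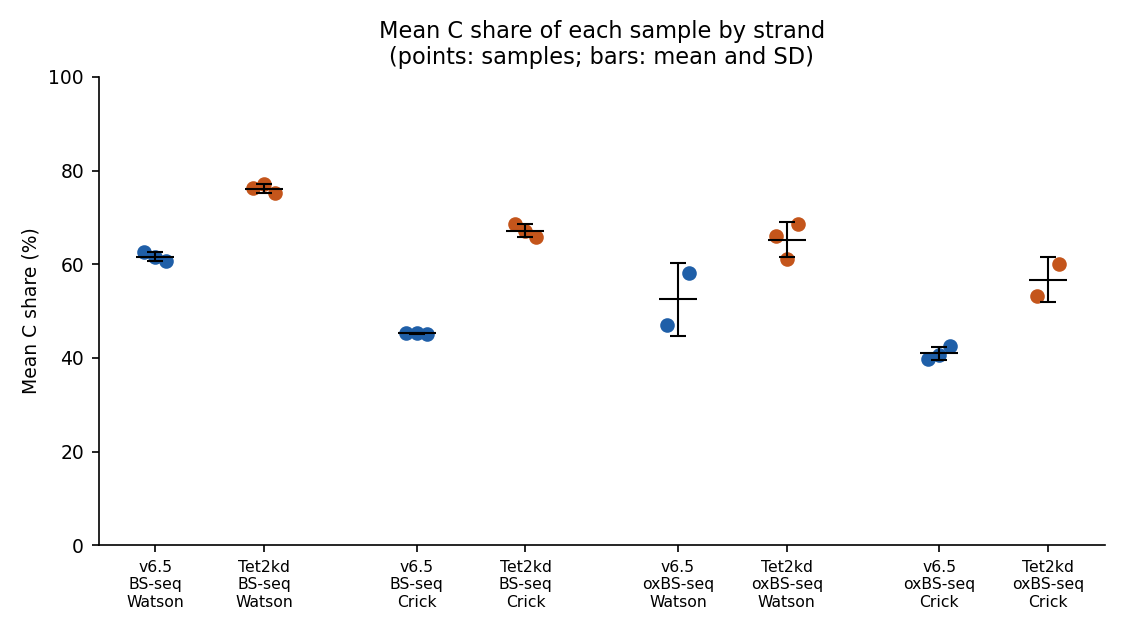
Mean C share (%, y axis from 0 to 100) of each sample at the matched cytosines listed in all samples that held the strand, by genotype, assay and strand, with the group mean and SD as bars. Tet2kd samples lie above v6.5 samples in all 4 pairs of columns, by 14.5, 21.9, 12.8 and 15.7 points from left to right, and oxBS-seq samples are more widely spread than BS-seq samples.

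C shares varied more along the window than between genotypes, and the profile had a similar shape in both. In v6.5 BS-seq the means ran from 20.3% at CpG 12 to 68.6% at CpG 5 on the Crick strand, with a median of 45.0%. On the Watson strand they ran from 26.3% at CpG 13 to 86.9% at CpG 3, with a median of 52.5%. Tet2kd means ran from 44.5% to 80.4% on the Crick and from 47.0% to 93.0% on the Watson strand. Over the 14 Crick cytosines the v6.5 and Tet2kd BS-seq means had a Pearson correlation of 0.951 (Spearman 0.978), and v6.5 BS-seq and oxBS-seq means had one of 0.981. Neighbouring cytosines share amplicon molecules and libraries, so these correlations describe the shape of the profile only.

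CpGs 3, 4 and 5 had the highest C shares of the window in BS-seq, on both strands and in both genotypes, and CpGs 7, 12 and 13 the lowest of the Crick strand in both genotypes. In oxBS-seq CpGs 3, 4 and 5 were again the highest, except on the Crick strand of Tet2kd cells, where CpG 6 (71.1%) exceeded CpG 3 (67.8%). A large step between neighbours lay between CpGs 6 and 7, which are 16 bases apart. In v6.5 BS-seq the Crick cytosine of CpG 6 stood at 60.1%, 63.8% and 60.3% in replicates 1 to 3, and that of CpG 7 at 27.0%, 27.6% and 27.9%. Both cytosines were covered by nearly the same number of read-outs in each of these libraries (2052 and 2056, 511 and 514, 614 and 616). In Tet2kd cells the same step ran from 80.6%, 78.0% and 77.6% to 51.7%, 52.0% and 50.9%.

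**Figure D2:**
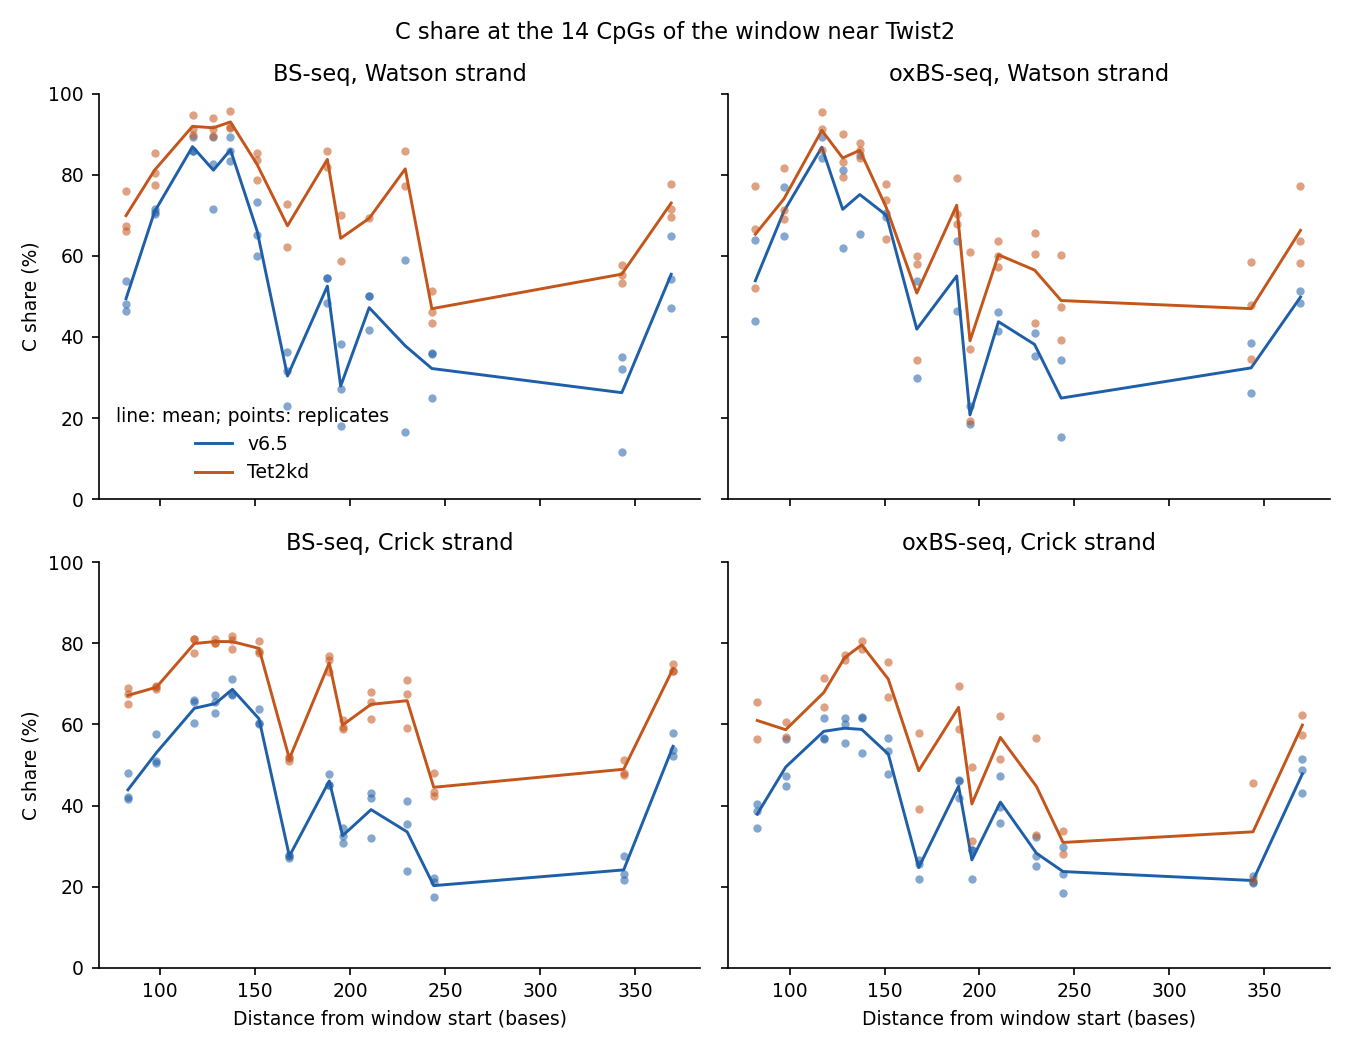
C share (%) at each CpG against the distance from the window start in bases, for BS-seq (left) and oxBS-seq (right) on the Watson (top) and Crick (bottom) strand. Points are replicates and lines the genotype means. The Tet2kd line lies above the v6.5 line at each matched cytosine, and both drop between CpGs 6 and 7.

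5 of the 27 matched cytosines passed the test per cytosine in BS-seq, all of them Crick cytosines and all higher in Tet2kd cells. The test was a quasi-binomial logistic regression of the C and T counts on genotype, with Benjamini-Hochberg adjustment over all 2668 cytosines tested and a threshold of 0.01. Among all those cytosines 1.46% were called higher and 0% lower, and among the 420 CpG cytosines of the study 9.29% were called higher and 0% lower. The called share of the window, 5 of 27, is to be read against that share of CpG cytosines. Most loci of the study had been chosen because antibody enrichment mapping had found a difference between the genotypes, so neither share stands for the genome.

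The called cytosine with the smallest spread was the Crick cytosine of CpG 7 (minus strand, chr1:93674931-93674931), given above. Its means were 51.5% ± 0.583 and 27.5% ± 0.447 (SD), a difference of 24.0 points (SE 0.424). The Crick cytosine of CpG 13 had the largest called difference. It stood at 51.2%, 48.0% and 47.6% in Tet2kd and at 23.2%, 27.5% and 21.7% in v6.5 replicates 1 to 3, which gives 24.8 points (SE 2.08).

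The other called cytosines lay at higher C shares. That of CpG 14 stood at 73.1%, 73.2% and 74.8% in Tet2kd and at 53.7%, 57.9% and 52.2% in v6.5 cells, a difference of 19.1 points (SE 1.79). CpG 6, with the values above, differed by 17.3 points (SE 1.53). The Crick cytosine of CpG 4 stood at 80.1%, 80.0% and 81.1% in Tet2kd and at 65.4%, 67.3% and 62.7% in v6.5 cells, a difference of 15.3 points (SE 1.37). The adjusted p-values of the quasi-binomial regression lay between 0.00922 and 0.00977, just under the threshold. The calls were lost when any 1 of the 6 samples was left out, since 0 cytosines of the window then passed. A two-sided exact permutation test of a single cytosine cannot go under 0.1 with 3 against 3 samples, which is the value that each of the 5 reached.

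Size alone did not separate called from uncalled cytosines. The called differences ran from 15.3 to 24.8 points, and of the 22 uncalled cytosines 6 lay below that range, 7 within it and 9 above it. Over the 27 cytosines the median difference was 20.5 points (5.00 to 43.6), beside a median of 7.06 points over the 393 other CpG cytosines and 0.0113 points over 2248 non-CpG cytosines. In all 27 every Tet2kd replicate listed lay above every v6.5 replicate listed, and over all 420 CpG cytosines of the study that held for 59.3%. 24 of the 27 had an unadjusted p under 0.05, beside 233 of the 393 other CpG cytosines and 76 of the 2248 non-CpG cytosines. Fisher's exact test on read-outs summed over replicates, which leaves out the spread between replicates, called 23 of the 27 and 70.7% of the 420 CpG cytosines higher.

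The remaining Crick cytosines fell into 2 sets by coverage. Those of CpGs 1, 2, 3 and 5, which were as deeply covered as the called ones, differed by 23.3, 16.1, 16.0 and 11.7 points (SE 2.34, 2.31, 2.14 and 1.59) and passed an adjusted threshold of 0.05 but not 0.01. Those of CpGs 8 to 12, with 31 to 155 read-outs in BS-seq, differed by 29.1, 27.3, 26.0, 32.3 and 24.2 points (SE 1.50, 1.28, 4.06, 6.18 and 2.25), each more than CpGs 4, 5 and 6 and none called at 0.01. The Crick cytosine of CpG 8 stood at 75.1% ± 2.10 in Tet2kd and 46.0% ± 1.54 in v6.5 cells and that of CpG 11 at 65.8% ± 6.01 and 33.5% ± 8.86 (SD, n = 3 each).

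The 3 largest BS-seq differences belonged to thin Watson cytosines and had wide errors. At CpG 11 the Watson cytosine stood at 85.7% and 77.1% in Tet2kd replicates 1 and 2 but at 59.0% and 16.7% in v6.5 replicates 1 and 2, from 12 to 39 read-outs each, and its difference of 43.6 points had an SE of 21.6. At CpG 7 it stood at 72.7% and 62.1% in Tet2kd replicates 1 and 2 and at 31.7%, 36.4% and 23.1% in v6.5 cells (37.0 points, SE 6.60). At CpG 9 it stood at 70.0% and 58.6% in Tet2kd replicates 1 and 2 and at 38.2%, 27.3% and 18.2% in v6.5 cells (36.4 points, SE 8.12). None of these passed the adjusted threshold.

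The 3 smallest differences were also on the Watson strand, at v6.5 means of 70.9% or more. CpG 3 stood at 89.9%, 91.3% and 94.6% in Tet2kd and at 85.7%, 89.3% and 85.7% in v6.5 cells (5.00 points, SE 1.85). CpG 5 stood at 95.7%, 91.9% and 91.5% in Tet2kd and at 83.4%, 89.3% and 85.7% in v6.5 cells (6.86 points, SE 2.17). CpG 2 stood at 85.3%, 80.5% and 77.5% in Tet2kd and at 70.8%, 70.4% and 71.4% in v6.5 cells (10.2 points, SE 2.29). In BS-seq, cytosines with a higher C share in v6.5 cells had smaller differences, with a Pearson correlation of -0.808 over 13 Watson and -0.783 over 14 Crick cytosines. In oxBS-seq it was -0.766 over 14 Watson but 0.066 (Spearman 0.143) over 14 Crick cytosines. The v6.5 value enters both sides of that relation and the share cannot exceed 100%, so these are descriptions.

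In oxBS-seq 0 of the 28 matched cytosines passed the regression test. An unadjusted p under 0.05 was found at 8 of the 28, beside 180 of the 386 other CpG cytosines. Among all 2646 cytosines tested 0% were called higher and 0% lower, and likewise 0% in both directions among the 414 CpG cytosines, so no cytosine of any locus was called in oxBS-seq. All 28 differences had the sign of BS-seq, as had 330 of the 386 other CpG cytosines. The median was 15.3 points (1.86 to 24.0), beside 7.61 points over those 386. Every Tet2kd replicate lay above every v6.5 replicate at 17 of the 28, and at 50% of the 414 CpG cytosines. Fisher's exact test called 18 of the 28 and 72.5% of the 414 higher.

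The spread between oxBS-seq replicates was larger than the counts alone would give. The Crick cytosine of CpG 13 stood at 21.5% in Tet2kd replicate 1, from 2513 read-outs, and at 45.5% in replicate 3, from 1503 read-outs. The first of these lay within the v6.5 values of 22.6%, 20.9% and 21.1%, so the genotypes overlapped there. The Crick cytosine of CpG 7 went the other way, with 57.9% in Tet2kd replicate 1 and 39.3% in replicate 3, both above the v6.5 values of 21.9%, 25.7% and 26.6%. The median dispersion of the regression was 4.97 over the window in oxBS-seq and 0.696 in BS-seq, where 1 is counting error alone, beside 15.0 and 4.23 over the other CpG cytosines. For the same spread in C share, dispersion rises with coverage, and Watson cytosines of the window were thinly covered. These medians were not matched for coverage, so they do not compare the replicate spread of the window with that of other CpGs.

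The oxBS-seq cytosines with the largest differences were CpG 12 Watson, CpG 7 Crick and CpG 1 Crick. CpG 12 Watson stood at 39.3%, 60.3% and 47.3% in Tet2kd and at 15.4% and 34.4% in v6.5 replicates 1 and 3 (24.0 points, SE 11.3). CpG 7 Crick, given above, differed by 23.9 points (SE 9.42). CpG 1 Crick stood at 56.5% and 65.4% in Tet2kd replicates 1 and 3 and at 40.5%, 38.7% and 34.5% in v6.5 cells (23.1 points, SE 4.79).

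The smallest oxBS-seq differences lay on the Watson strand, and at all 3 cytosines the genotypes overlapped. CpG 6 stood at 77.7%, 64.2% and 73.7% in Tet2kd and at 69.5% and 70.5% in v6.5 cells (1.86 points, SE 4.04). CpG 2 stood at 71.3%, 69.1% and 81.6% in Tet2kd and at 64.9% and 76.9% in v6.5 cells (3.07 points, SE 7.14). CpG 3 stood at 86.0%, 95.5% and 91.3% in Tet2kd and at 84.2% and 89.3% in v6.5 cells (4.16 points, SE 3.75).

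**Figure D3:**
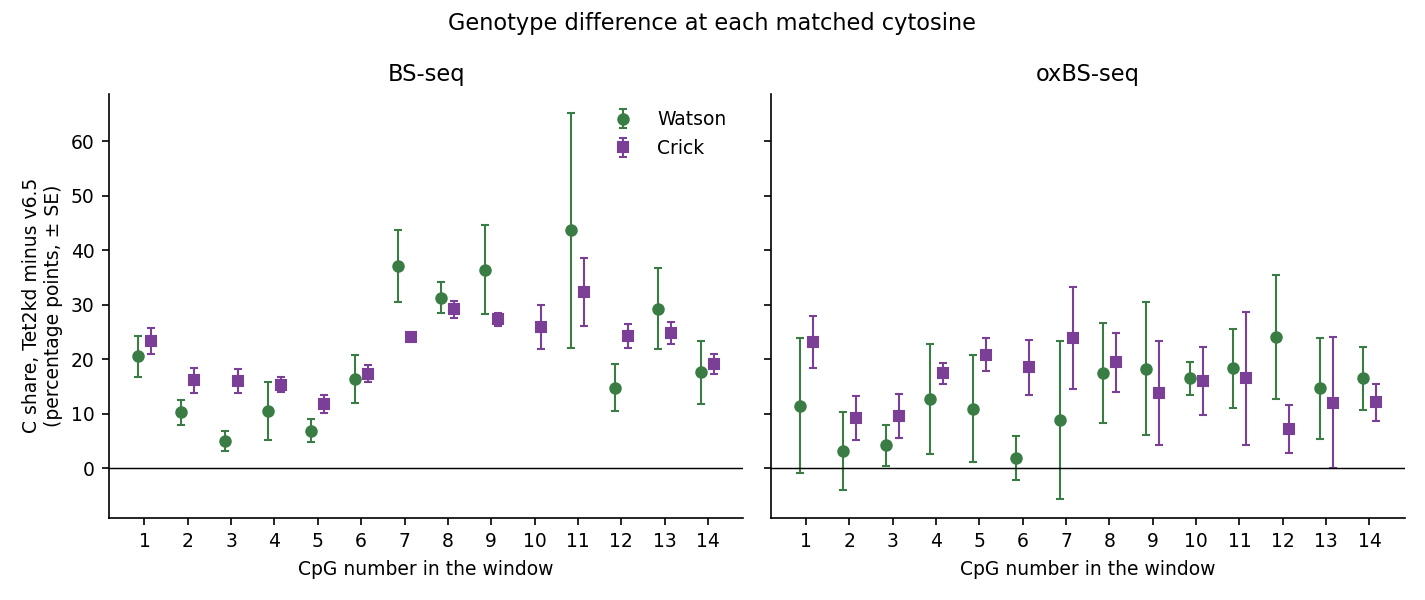
Difference in C share between Tet2kd and v6.5 (percentage points, y axis) at each matched cytosine against CpG number, with its SE from the replicates, for BS-seq (left) and oxBS-seq (right). All 27 BS-seq and all 28 oxBS-seq differences are above 0, and the errors are smallest for Crick cytosines in BS-seq.

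The BS-seq C share minus the oxBS-seq C share of the same replicate estimates 5hmC (the frequency method) and averaged higher in Tet2kd than in v6.5 cells at this window, with overlap between the groups. By the additive fit over 27 cytosines it was 13.0, 15.4 and 4.28 points in Tet2kd replicates 1 to 3. In v6.5 replicates 1 to 3 it was 7.44, 3.32 and -1.54 points. In that fit Tet2kd replicate 2 rests on Watson cytosines only and v6.5 replicate 2 on Crick cytosines only. The means were 10.9 ± 5.87 and 3.07 ± 4.50 points (SD, n = 3 each), and the difference of 7.83 points (SE 4.27) had a two-sided exact permutation p = 0.2, where 0.1 is the smallest possible. With 1 replicate left out and the 27 cytosines kept, the difference ran from 4.81 (without v6.5 replicate 3) to 11.1 points (without Tet2kd replicate 3). Without replicate 2 of both genotypes it was 5.14 points over 23 cytosines. Each strand alone, without a fit, gave 3.47 points (SE 7.56, 9 Watson cytosines) and 6.32 points (SE 4.83, 14 Crick cytosines). The two-sided exact permutation p was 0.6 and 0.2, where 0.2 is the smallest possible. Tet2kd replicate 2 stood at 6.85 points over those 9 Watson cytosines, beside 15.4 points in the fit.

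Per cytosine, the genotype mean of BS-seq exceeded that of oxBS-seq at 26 of 27 cytosines in Tet2kd and at 18 of 27 in v6.5 cells. These means do not rest on the same replicates. The oxBS-seq means lack v6.5 replicate 2 on the Watson and Tet2kd replicate 2 on the Crick strand. On the Watson strand the counts were 12 of 13 in Tet2kd and 6 of 13 in v6.5 cells. On the Crick strand they were 14 of 14 and 12 of 14. The median excess was 8.50 points (-2.01 to 25.3) in Tet2kd and 3.53 points (-11.5 to 11.03) in v6.5 cells. Negative values, which no 5hmC level can have, were thus part of the spread. At the 384 CpG cytosines of the 14 other loci with full coverage, the same quantity was 3.45, 1.46 and 2.86 points in Tet2kd and 3.47, 3.70 and 4.27 points in v6.5 replicates 1 to 3, so there the Tet2kd samples lay below the v6.5 samples (by 1.22 points, SE 0.633; exact permutation p = 0.1, two-sided, the smallest possible). The window minus the other loci differed by 9.06 points (SE 4.64) between genotypes, with a two-sided exact permutation p = 0.2.

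How much 5hmC oxBS-seq removes depends on the oxidation, which was measured in the spiked-in lambda DNA with 5hmC. The efficiency, 1 minus the ratio of the oxBS-seq to the BS-seq C share over 27 Watson-strand control cytosines, was 0.598, 0.512 and 0.438 in Tet2kd and 0.756, 0.443 and 0.717 in v6.5 replicates 1 to 3. The means were 0.516 ± 0.0799 and 0.639 ± 0.170 (SD, n = 3 each; two-sided exact permutation p = 0.3), and the groups overlapped. Part of any 5hmC therefore stayed as C in oxBS-seq in all 6 replicates. Divided by the efficiency, the estimate was 21.7, 29.8 and 9.75 points in Tet2kd and 9.85, 8.25 and -1.98 points in v6.5 replicates 1 to 3, a difference of 15.1 points (SE 6.91) with the same two-sided exact permutation p = 0.2. The control cytosines without any modification kept a C share of at most 0.401% and those with 5mC at least 98.5%.

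**Figure D4:**
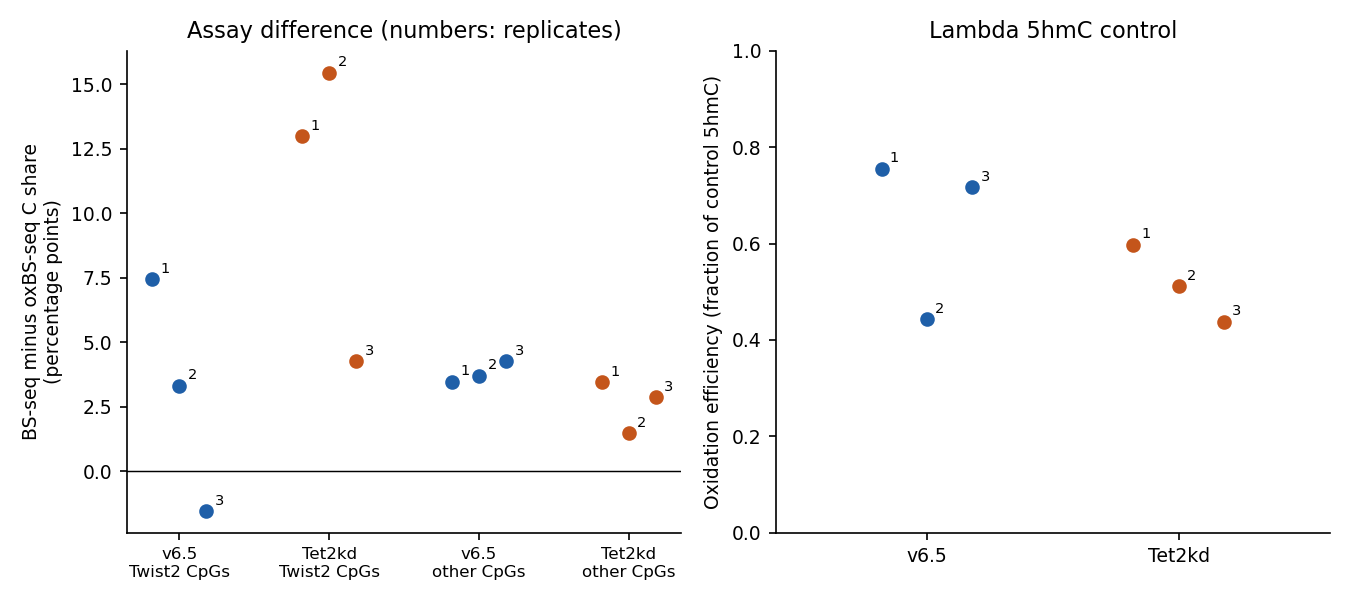
Left, BS-seq minus oxBS-seq C share (percentage points) of each replicate at the Twist2 CpGs (fitted over 27 cytosines) and at the 384 other CpG cytosines. Right, oxidation efficiency of each replicate (fraction, axis from 0 to 1). Replicate numbers stand beside the points. Values near Twist2 run from -1.54 to 15.4 points and overlap between genotypes, while those of the other CpGs lie between 1.46 and 4.27.

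The Watson strand had the higher C share in all 10 libraries that held both strands. Over the 9 CpGs with both cytosines listed in every BS-seq library, Watson minus Crick was 5.77, 8.02 and 7.06 points in Tet2kd and 12.8, 8.53 and 11.8 points in v6.5 replicates 1 to 3. The mean was 9.01 ± 2.76 points (SD, n = 6), with a two-sided exact sign-flip permutation p = 0.0312, the smallest 6 samples can give. The v6.5 gaps were all larger than the Tet2kd gaps (11.1 ± 2.25 against 6.95 ± 1.13 points, SD, n = 3 each; exact permutation p = 0.1, two-sided, the smallest possible). In oxBS-seq, over 14 CpGs, the gap was 12.7 and 8.49 points in Tet2kd and 7.09 and 15.5 points in v6.5 replicates 1 and 3, and the genotypes overlapped. This comparison of strands was chosen after the values had been seen.

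The gap was not spread evenly over the window. In BS-seq it averaged 14.9, 17.5, 13.6 and 15.1 points at CpGs 2, 3, 4 and 5, where Watson was higher in 6 of 6 samples, but 0.0746 points at CpG 14, where it was higher in 3 of 6. At CpG 9 it was -0.729 points over 5 samples. CpG methylation is usually near symmetric, since the maintenance enzyme DNMT1 copies it to the new strand. Whether the gap arose in the cells or in the amplification of the bisulfite-treated DNA was not tested. In the 14 other loci the mean BS-seq gap of a locus lay between -2.997 and 3.91 points, and 1 of them had a higher Watson share in every sample. In oxBS-seq it lay between -7.195 and 4.22 points, and 0 of them had a higher Watson share in every sample. The lowest was that of the window near AC122043.1, where Crick was higher in every oxBS-seq library (-8.94 to -5.51 points). A gap of 1 sign in all libraries of an assay was thus not found near Twist2 only. Near Twist2 the Watson strand had the lower median coverage in every library with both. A relation between coverage and the gap was not tested. CpGs 2 to 5, with Watson medians from 130 to 132 read-outs, had the gaps of 13.6 to 17.5 points, whereas CpGs 7 to 11, with medians from 22 to 35, had gaps of -0.729 to 10.2 points. CpGs 1, 13 and 14, with medians from 122 to 130, had gaps of 4.16, 4.34 and 0.0746 points. CpGs 6 and 12, with medians of 57 and 90, had gaps of 4.29 and 7.22 points.

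Non-CpG cytosines of the window gave a background on the same molecules. Their mean C share was between 0.446% and 0.788% per library in libraries with Watson reads, and 0.127% in the oxBS-seq library of v6.5 replicate 2, which held Crick cytosines only. Watson cytosines had 0.576% to 1.04% and Crick cytosines 0.127% to 0.267%. 3 Watson positions stood out. The CHG cytosine at chr1:93674913-93674913, next to CpG 6, had 14.1% in v6.5 and 18.1% in Tet2kd BS-seq and 19.0% and 16.6% in oxBS-seq. The CHH cytosine at chr1:93674876-93674876 had 16.8% and 19.6% in BS-seq and 7.36% and 6.51% in oxBS-seq. The CHH cytosine at chr1:93674937-93674937 had 6.17% and 13.4% in BS-seq and 18.2% and 13.7% in oxBS-seq. Beside the shares of the CpGs, the background of all other non-CpG cytosines was small, at 3.44% or less averaged over the 4 groups.

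The genotype difference near Twist2 was larger than that of the other loci pooled in BS-seq, and in oxBS-seq the samples overlapped. The C share of the 384 other CpG cytosines was 63.7%, 63.5% and 64.4% in Tet2kd and 54.7%, 54.8% and 56.0% in v6.5 BS-seq, a difference of 8.68 points (SE 0.502). The window minus the other loci was 7.88, 7.44 and 5.15 points in Tet2kd and -2.62, -3.12 and -4.81 points in v6.5 replicates 1 to 3. Between genotypes these values differed by 10.3 points (SE 1.07; two-sided exact permutation p = 0.1, the smallest possible). Of the 384 cytosines, 64 belong to the unmethylated window of Pqbp1 and Timm17b (fitted BS-seq mean 0.227% for v6.5, 0.727% for Tet2kd). They lower the pooled C share, so the signs of these values hold for this pool only. Apart from that locus, only Runx1 (62.9%) and Letmd1 (59.0%) had a fitted Tet2kd BS-seq mean below that near Twist2 (70.6%). Without the unmethylated locus the genotypes differed by 8.71 points. In oxBS-seq the window minus the other loci was -0.626, -6.30 and 2.81 points in Tet2kd and -7.81, -5.02 and -1.44 points in v6.5 replicates 1 to 3, which overlapped, and the difference was 3.38 points (SE 3.23; two-sided exact permutation p = 0.4).

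Among the 15 loci, compared by the additive fit, the BS-seq difference near Twist2 ranked 2, behind Igsf21 (22.4 points). It was 21.0 points over the 27 cytosines matched in both assays, and the oxBS-seq difference ranked 7 (13.1 points). The BS-seq rank rests on the fit. The 19.0 points found over the 23 cytosines listed in every sample lie below the 19.5 points of Letmd1. The 14 other loci ranged from -0.939 to 22.4 points in BS-seq and from 0.196 to 28.4 points in oxBS-seq. In each assay all Tet2kd samples lay above all v6.5 samples at 11 of these 14. The loci whose 4 group means were closest to those near Twist2 were the windows in Runx1 (distance 8.02 points), Hsp90ab1 (12.6 points) and Igsf21 (13.2 points). In these, the difference was 12.2, 15.9 and 22.4 points in BS-seq and 15.8, 16.4 and 28.4 points in oxBS-seq, so that it was the larger in oxBS-seq in each of them and the smaller near Twist2. Letmd1, next to Twist2 in the BS-seq order, had the order found near Twist2 (19.5 points in BS-seq and 15.0 in oxBS-seq). These orders were not tested.

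**Figure D5:**
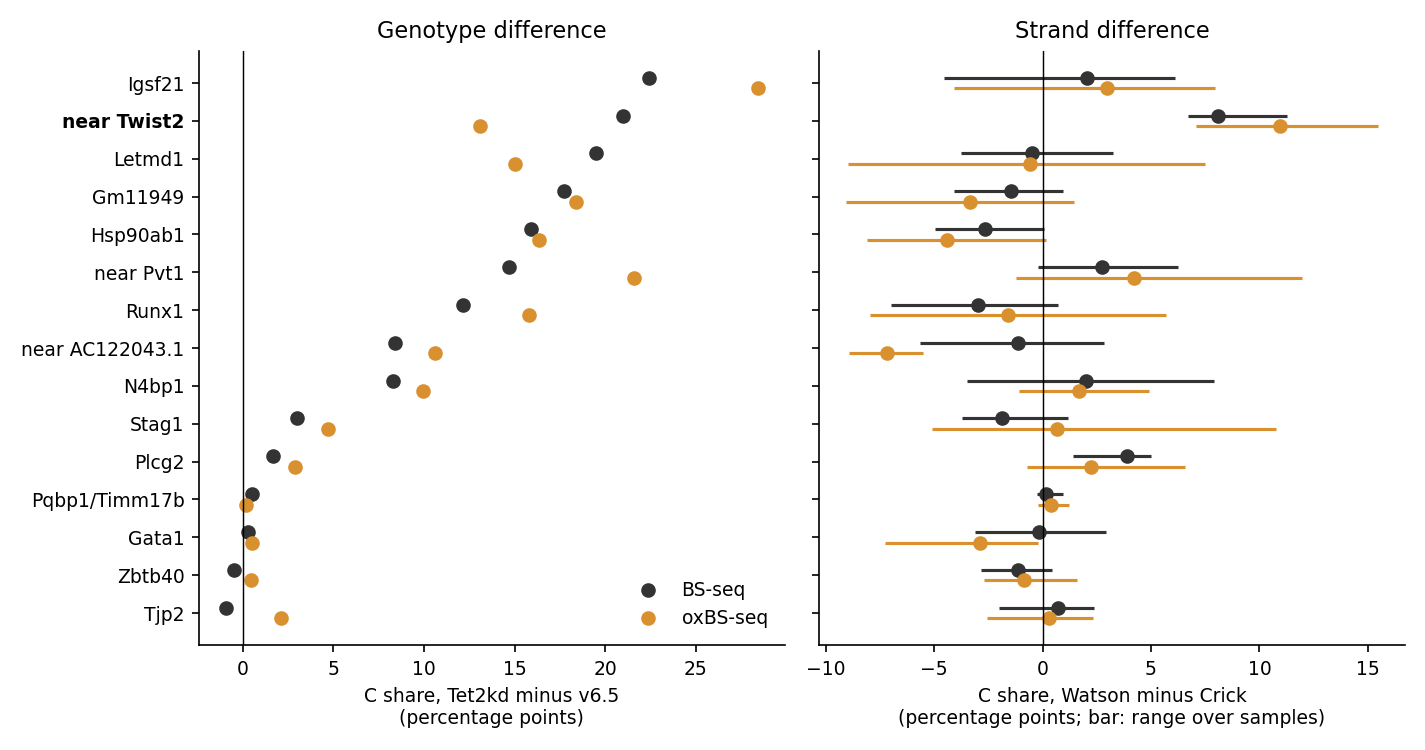
Left, C share of Tet2kd minus v6.5 (percentage points, fitted sample means) for the 15 loci in BS-seq (black) and oxBS-seq (orange), ordered by BS-seq. Right, Watson minus Crick C share of the same loci, with the mean as a point and the range over samples as a bar. By these fitted means the window near Twist2 (bold) is second in BS-seq at 21.0 points. Its strand gap is averaged here over every CpG whose 2 cytosines the library lists. It is not limited to the 9 CpGs shared by all BS-seq libraries. The gap lies above 0 in every library with both strands. It runs from 6.71 to 11.3 points in BS-seq and from 7.09 to 15.5 in oxBS-seq.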

How the data were processed

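The authors aligned the paired reads of the targeted MiSeq libraries with Bismark 0.7.12 and Bowtie2 to mm9 and lambda DNA, and deposited counts of C and T read-outs for each cytosine with at least 10 of them, without normalization. The deposited percent column was not used. Samples held 4505229 to 18096597 genomic read-outs. Positions were raised by 1, and strand and context were read from the mm9 sequence (all 2708 genomic positions were C or G).

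Sample values were means over matched cytosines listed in every sample that held 50% or more of them, compared with exact permutation tests. In oxBS-seq that left 0 cytosines, since replicates 2 held opposite strands, so the planned additive fit became the reported one there, in the assay difference and in the comparison with other loci. Counts per cytosine were fitted with a quasi-binomial regression with a dispersion of at least 1, tested on simulated data. Named cytosines were the 3 highest and 3 lowest differences per assay and those called. Alternatives were other coverage minimums, tests, thresholds, strands, samples left out and a replicate block. The members and tests were chosen with earlier results of these data known. The replicates are described as separate cultures. Python 3.11.15, numpy 2.4.6, scipy 1.17.1 and pandas 2.3.3 were used.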

Additional observations from a re-analysis of the deposited data

How the results depend on the processing

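The direction, higher in Tet2kd cells, was kept under all alternatives run for the 5 comparisons of sample means. The BS-seq difference ran from 14.5 (Watson strand alone) to 21.9 points (Crick strand alone), and from 18.6 to 21.4 with 1 sample left out (the latter without Tet2kd replicate 3, over 26 cytosines). In oxBS-seq, leaving out a sample that held both strands also removed a strand from the matched set, and with it replicate 2 of the other genotype, so those values compare 2 against 2 samples over fewer cytosines. The oxBS-seq difference then ran from 11.1 to 16.4 points. With the 28 matched cytosines kept, a setting added after seeing the data, it ran from 10.7 to 15.8 points, and without replicate 2 of both genotypes, also added, it was 15.1 points. The assay difference was 15.1 points when divided by the oxidation efficiency and 2.37 points at a coverage minimum of 50 (9 cytosines). With 1 replicate left out it ran from 1.59 to 10.5 points over the reduced sets (9 and 13 cytosines, 2 against 2 samples), and from 4.81 to 11.1 points with the 27 cytosines kept. The BS-seq difference beyond the other loci ran from 8.71 to 12.9 points, with 9.69 to 12.9 when 1 sample was left out. In oxBS-seq it ran from 1.43 to 6.71 points over the reduced sets (14 cytosines, 2 against 2 samples), from 0.948 (without Tet2kd replicate 3) to 5.84 points (without Tet2kd replicate 2) with the 28 cytosines kept, and was 1.44 points without the unmethylated locus. No p could fall under 0.1 with 3 against 3 samples, so these tests could not reach 0.05.

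The number of called cytosines depended on the test. The 5 BS-seq calls became 23 by Fisher's exact test, 11 when adjusted over CpG cytosines only, 10 at a threshold of 0.05, 7 with the dispersion not bounded, 5 at a coverage minimum of 20, and 0 with the replicate block. Without any 1 of the 6 samples the count was 0 (lowest and highest). In oxBS-seq the count was 18 by Fisher's exact test and 0 under the other 11 alternatives, block included. The cause of these shifts was not tested.

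With the replicate block the sample differences were the same, 19.0 points in BS-seq and 13.3 in oxBS-seq, with p = 0.25 in the exact permutation of signs within numbers, which is its lower limit. Replicate numbers were not taken as pairs. The deviations of same-numbered samples correlated at 0.179, 0.0766 and 0.115 in BS-seq, where each sample correlated best with its own number, and at 0.093, -0.0867 and -0.175 in oxBS-seq. A coverage minimum of 5 was not run, since the files list no cytosine under 10 read-outs, and summing the oxBS-seq read-outs gave no value without shared cytosines. Watson cytosines at 10 read-outs limit the depth most.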
